A study of Mus musculus with 6 samples.

Results

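The cholesterol and fatty acid synthesis genes were examined in spermatocytes of the leptotene and zygotene stages (L/Z), that is, germ cells in early meiotic prophase. They had been sorted from testes of mice aged 12 days postpartum (dpp) on a flow cytometer. The group consisted of 35 genes of the 54532 in the count table, chosen by symbol: the SREBP transcription factors with the proteins that control them, 18 enzymes of sterol synthesis, and 12 enzymes that make, lengthen, desaturate or reduce fatty acids, Scd2 and Far1 included. Every symbol matched 1 row. Of these genes 25 had enough reads to be tested and 10 did not. The 3 Control libraries carry the genotype label Wild type, and the study describes its controls as littermates. The 3 Eef1g-cKO libraries came from males in which a floxed stretch of Eef1g was removed in germ cells by Stra8-GFPCre, a Cre that becomes active in differentiating spermatogonia, so that cells other than germ cells keep the gene. Eef1g encodes the gamma subunit of translation elongation factor eEF1. The floxed line was made on C57BL/6J; whether controls carried Cre or a floxed allele, and how many animals gave a library, is not given in the sources used here, so the p-values measure the spread between these libraries.

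Cells make fatty acids from citrate: ATP citrate lyase (Acly) releases acetyl-CoA, acetyl-CoA carboxylase (Acaca) activates it and fatty acid synthase (Fasn) builds palmitate, which ELOVL enzymes lengthen and SCD and FADS enzymes desaturate. The mevalonate arm and the later sterol enzymes turn the same acetyl-CoA into cholesterol. Genes of both routes are classical targets of the SREBP factors, which SCAP escorts out of the endoplasmic reticulum when sterols are low and which INSIG proteins hold back when sterols are plentiful. In the testis, germ cells depend on long-chain polyunsaturated fatty acids and on ether lipids for their membranes.

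Library totals ran from 763133 to 2617648 reads, and Eef1g-cKO replicate 3 was the shallowest, with reads for 24 of the 35 genes against 29 to 33 in the other libraries. Eef1g itself had 222, 226 and 212 CPM (reads per 1000000 of the TMM-scaled library) in Control and 139, 151 and 119 CPM in Eef1g-cKO (log2 fold change −0.68, SE 0.20, adjusted p 0.029), and its count includes exons outside the floxed stretch. The meiotic markers of the labelled cells were abundant: the summed level of 12 L/Z markers was 10400 to 12000 CPM in Control and 22500 to 29100 CPM in Eef1g-cKO. Markers of other cells also differed between the genotypes. The sums of 12 spermatogonial markers were 1520 to 1750 CPM in Control and 705 to 844 CPM in Eef1g-cKO, with 5 of the 6 tested lower. Those of 12 Sertoli cell markers were 205 to 717 and 47.9 to 126 CPM, with 3 of 6 tested lower, and those of 9 peritubular and stromal markers were 194 to 329 and 18.5 to 80.0 CPM, with 4 of 5 tested lower. The Sertoli markers Amh and Gata4 were at 0 in every Eef1g-cKO library and at most 1.12 CPM in a Control library. Others of that list were well covered in Control. Cst9 had 45, 222 and 125 CPM in Control and 40.4, 4.31 and 21.6 CPM in Eef1g-cKO, and was not among the 3 lower genes. Aard, which was among them, had 71, 184 and 107 CPM against 39.6, 48.6 and 24.7 CPM. Leydig markers summed to at most 14.2 CPM in any library, and the steroidogenic genes Cyp17a1, Hsd3b1 and Hsd3b6 had no read at all. Sums of 10 markers of pachytene and later germ cells were 25.7 to 44.2 CPM in Control and 3.09 to 18.4 CPM in Eef1g-cKO, whereas those of 8 blood markers (6.72 to 77.9 and 3.53 to 75.7 CPM) and of 4 endothelial markers (3.82 to 12.3 and 0 to 35.6 CPM) overlapped. The study stained sorted cells for the proteins SYCP3 and γH2AX. It reported similar shares of L/Z spermatocytes in both genotypes, without a significant difference. That measure does not divide the remaining cells by type. In bulk libraries of this kind, fewer cells of a type and less RNA per cell cannot be told apart.

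To ask whether loss of eEF1G altered lipid synthesis transcripts, Control and Eef1g-cKO libraries were compared with the edgeR quasi-likelihood test over all 8513 tested genes. Of 8 tested enzymes of fatty acid synthesis, elongation and desaturation, 5 were lower in Eef1g-cKO spermatocytes. These were Scd2, Elovl6, Fasn, Acly and Elovl5, all with no overlap between the genotypes. Far1, which makes fatty alcohols for ether lipids, rose. None of the tested sterol enzymes or SREBP regulators passed the same threshold, an adjusted p under 0.05. In all, 5 genes of the group were lower and 1 was higher, whereas 6.01% of all tested genes were lower and 7.80% were higher. All 6 also passed an absolute log2 fold change of 1, which 4.96% of all tested genes passed in the lower and 3.42% in the higher direction. CPM values of all 3 Eef1g-cKO libraries lay below all Control libraries for 10 of the tested genes of the group (18.1% of all tested genes) and above them for 2 (16.4%). The median log2 fold change of the tested genes of the group was −0.49, beside −0.05 over all tested genes. Srebf1, Mvd and Elovl6 reached the minimum read level in Control libraries only, so their passing that filter already favoured a difference. Scd2, Srebf2 and Fads1 reached it in 3 Control libraries and 1 Eef1g-cKO library, and Insig1 and Acaca in 3 and 2. For these genes too, passing the filter rested on the Control libraries. Without any filter all 35 genes were tested, and 6 were lower and 1 higher, the added gene being Srebf2.

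**Figure D1:**
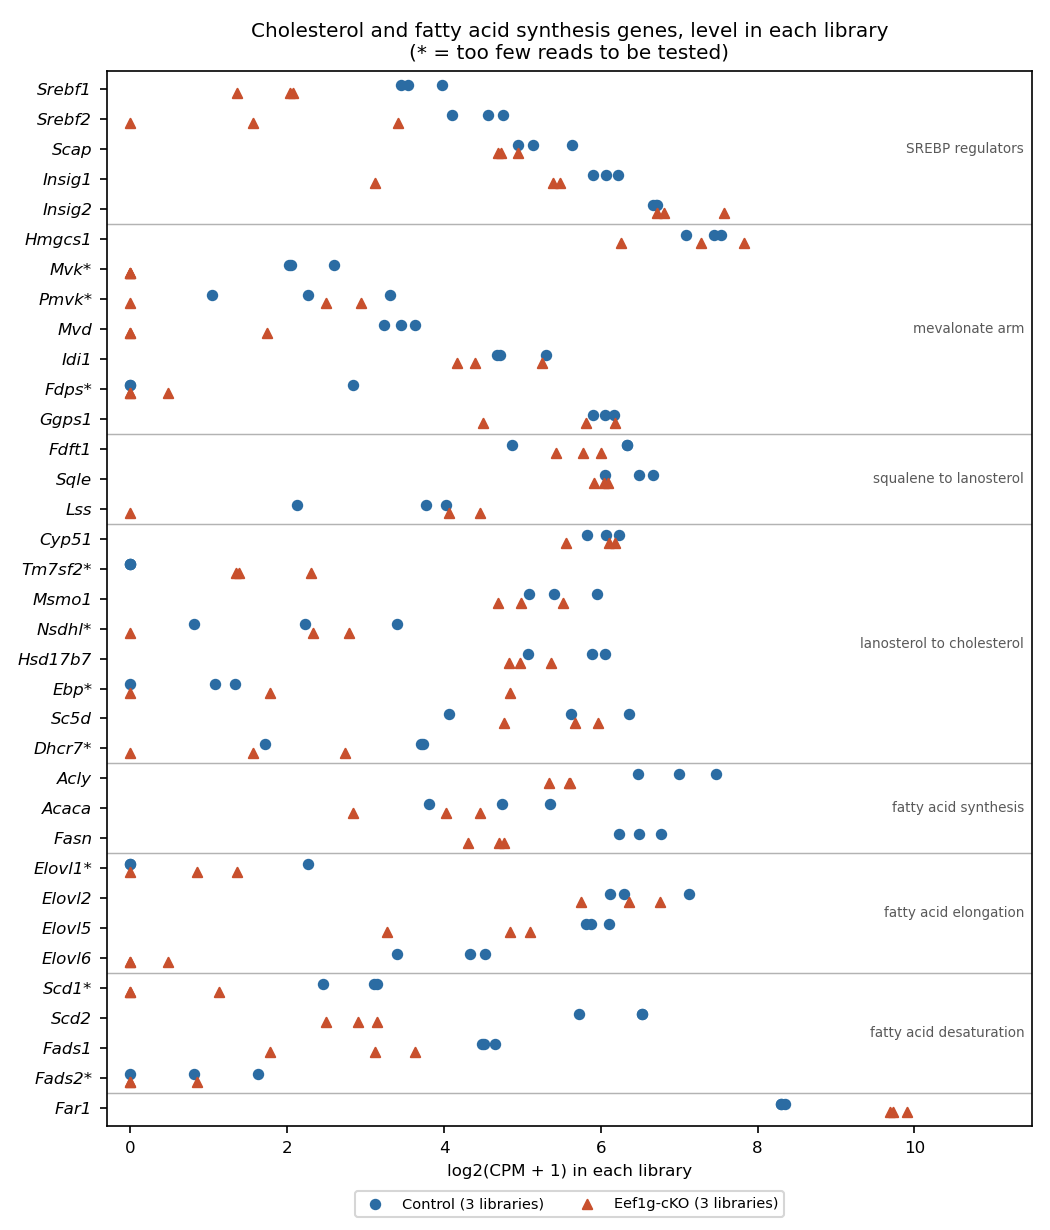
Level of each of the 35 genes in each library, as log2(CPM + 1) on the horizontal axis, with genes ordered by role; circles are the 3 Control and triangles the 3 Eef1g-cKO libraries, and an asterisk marks genes with too few reads to be tested. Circles and triangles separate for Scd2, Fasn, Acly, Elovl5 and Elovl6 among the fatty acid enzymes, which were called, and also for Fads1 and Scd1, which were not. They separate in the same direction for Srebf1, Srebf2, Insig1, Mvd and Mvk. In the other direction they separate for Far1, narrowly for Insig2, and for Tm7sf2, whereas they intermingle for most sterol enzymes.

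Of the desaturases, Scd2 was called (ENSMUSG00000025203, chromosome 19, 44293676 to 44306864, plus strand, GRCm38). It encodes a stearoyl-CoA desaturase, an enzyme that puts a double bond into saturated fatty acids. Its read counts were 68, 174 and 163 in Control and 8, 20 and 3 in Eef1g-cKO. These gave 51.9, 91.3 and 91.2 CPM against 6.47, 7.84 and 4.63 CPM, so the lowest Control library was still far above every Eef1g-cKO library. Expression was 11.6-fold lower (log2 fold change −3.53, SE 0.43, adjusted p 3.31e-05).

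Scd1, the neighbouring paralog (44394451 to 44407709, minus strand), had too few reads to be tested, with 10, 15 and 8 reads in Control and 0, 3 and 0 in Eef1g-cKO. The summed reads gave a Control level 9.75 times that of Eef1g-cKO, with an exact Clopper-Pearson 95% interval of 3.06 to 49.7 that covers counting error only. Per length, Scd2 was the main desaturase of the pair in Control, at 14.3 ± 4.17 RPKM (CPM per kilobase of gene length, SD, n = 3) against 1.38 ± 0.392 RPKM for Scd1. In Eef1g-cKO, Scd2 was at 1.16 ± 0.295 RPKM. How reads shared between these similar genes were counted is not given in the sources used here, so the division between them is uncertain.

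Fads1 and Fads2, the delta-5 and delta-6 desaturases of polyunsaturated fatty acids, lie beside each other on chromosome 19. Fads1 had 21.4, 24.1 and 21.8 CPM in Control and 2.43, 11.4 and 7.72 CPM in Eef1g-cKO, without overlap. Its log2 fold change of −1.59 (95% interval −2.91 to −0.27) did not pass the threshold (adjusted p 0.103). Fads2 had at most 4 reads in any library and was not tested.

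Fasn (chromosome 11, 120805846 to 120824547), the synthase that assembles palmitate, had 142, 169 and 133 reads in Control and 31, 48 and 17 in Eef1g-cKO. On the CPM scale these were 108, 88.7 and 74.4 against 25.1, 18.8 and 26.3, a 3.94-fold lower level with no overlap (log2 fold change −1.98, SE 0.34, adjusted p 0.000735). Acly (chromosome 11, 100476353 to 100528000), which supplies its acetyl-CoA, had 115, 336 and 227 reads in Control and 49, 121 and 31 in Eef1g-cKO. The 3 Control libraries spread from 87.8 to 176 CPM, whereas the Eef1g-cKO libraries kept within 39.6 to 47.9 CPM. The log2 fold change was −1.54 (SE 0.30, adjusted p 0.00222). Acaca, which acts between them, was scarcer, with 13.0, 25.7 and 39.7 CPM in Control and 21, 15.3 and 6.18 CPM in Eef1g-cKO. The groups overlapped, and the log2 fold change of −0.84 had a 95% interval of −2.02 to 0.34.

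Of 3 tested elongases, 2 fell. Elovl6 (chromosome 3, 129532355 to 129638495), which lengthens palmitate to stearate, had 25, 42 and 17 reads in Control and 0, 1 and 0 in Eef1g-cKO, and it was called lower (adjusted p 0.00182). Because a single read was left in Eef1g-cKO, the fitted fold is not a measure of its size; the summed reads gave a Control level 74.5 times that of Eef1g-cKO, with a counting interval of 13.0 to 2980.

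Elovl5 (chromosome 9, 77917364 to 77984519), an elongase of polyunsaturated fatty acids, had 72, 110 and 121 reads in Control and 41, 22 and 18 in Eef1g-cKO. It had 55, 57.7 and 67.7 CPM against 33.2, 8.63 and 27.8 CPM, with no overlap (log2 fold change −1.44, SE 0.44, adjusted p 0.0366). This call was the weakest of the 6. It was lost without Control replicate 1, 2 or 3 (adjusted p 0.0949, 0.0985 and 0.147) and without Eef1g-cKO replicate 2, where the log2 fold change was −0.95 (adjusted p 0.114). Elovl2, the elongase of the longest polyunsaturated chains, had 68.7, 138 and 77.8 CPM in Control and 80.9, 107 and 52.5 CPM in Eef1g-cKO. Its log2 fold change was −0.22, and the 95% interval of −0.89 to 0.46 did not reach a 2-fold decrease. Elovl1 had at most 5 reads in a library and overlaps Cdc20 on the opposite strand.

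Far1 (ENSMUSG00000030759, chromosome 7, 113513834 to 113571511), the reductase that converts fatty acyl-CoA to the alcohols of ether lipids, went the other way. It had 413, 601 and 581 reads in Control and 1186, 2155 and 533 in Eef1g-cKO, that is 315, 315 and 325 CPM against 959, 845 and 823 CPM. The lowest Eef1g-cKO library was far above the highest Control library. Its level was 2.75-fold higher (log2 fold change 1.46, SE 0.15, adjusted p 6.92e-06). Per length, Far1 stood at 39.6 ± 0.707 RPKM in Control, next to Hmgcs1 at 35.7 ± 5.56 RPKM, and the spread of Hmgcs1 did not separate the 2 genes. In Eef1g-cKO it had 109 ± 9.06 RPKM, with Insig2 next at 38.9 ± 13.7 RPKM. Of the 5 other ether lipid genes examined, Agps and Gnpat of the peroxisomal steps, Dhrs7b and Tmem189 had log2 fold changes from −0.49 to 0.35, and none was called. Far2, the paralog of Far1, had no read in Control and 3, 0 and 0 reads in Eef1g-cKO and was not tested. Agps had 145, 187 and 141 CPM in Control and 164, 188 and 224 CPM in Eef1g-cKO, so the groups overlapped.

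**Figure D2:**
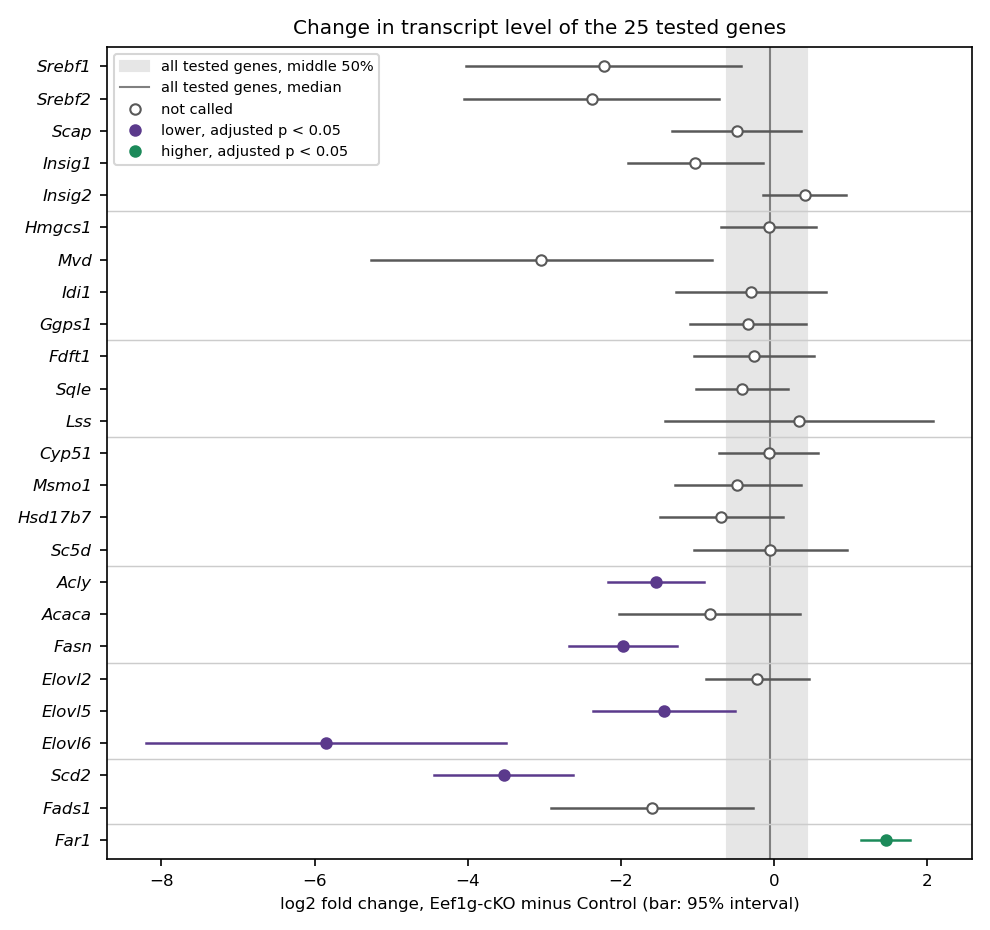
Log2 fold change of the 25 tested genes (horizontal axis, Eef1g-cKO minus Control) with 95% intervals from the edgeR fit; filled points passed an adjusted p of 0.05, and the grey band and line give the middle 50% and the median of all tested genes. Scd2, Fasn, Acly, Elovl5 and Elovl6 lie to the left of 0 with intervals that exclude it, Far1 lies at 1.46, and the sterol enzymes other than Mvd have intervals that include 0. The intervals of Fads1, Srebf1, Srebf2, Insig1 and Mvd also lie below 0, but these genes did not pass the threshold.

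The fatty acid enzymes other than Far1 were lower in the same libraries as markers of other cells. Without Far1, the 11 enzymes of synthesis, elongation and desaturation summed to 437, 634 and 514 CPM in Control and 210, 220 and 173 CPM in Eef1g-cKO. With Far1, the most abundant of them, the sums of all 12 went the other way. They were 753, 950 and 839 CPM in Control and 1170, 1060 and 996 CPM in Eef1g-cKO. Control replicate 2 had the highest sum without Far1, and it also had the highest Sertoli marker sum, 717 CPM, against 205 and 367 CPM in Control replicates 1 and 3. The highest spermatogonial and stromal sums of the Control libraries (1750 and 329 CPM) were in replicate 1, which had the lowest Control sum of the enzymes without Far1. With only 3 Control libraries, these rankings cannot show which sums vary together. The part of spermatogonial, Sertoli or stromal RNA in the lower level of the enzymes other than Far1 was not tested. Far1 rose together with the L/Z markers, of which 7 of 12 were higher, and the part of a changed cell composition in its level was not tested either.

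**Figure D3:**
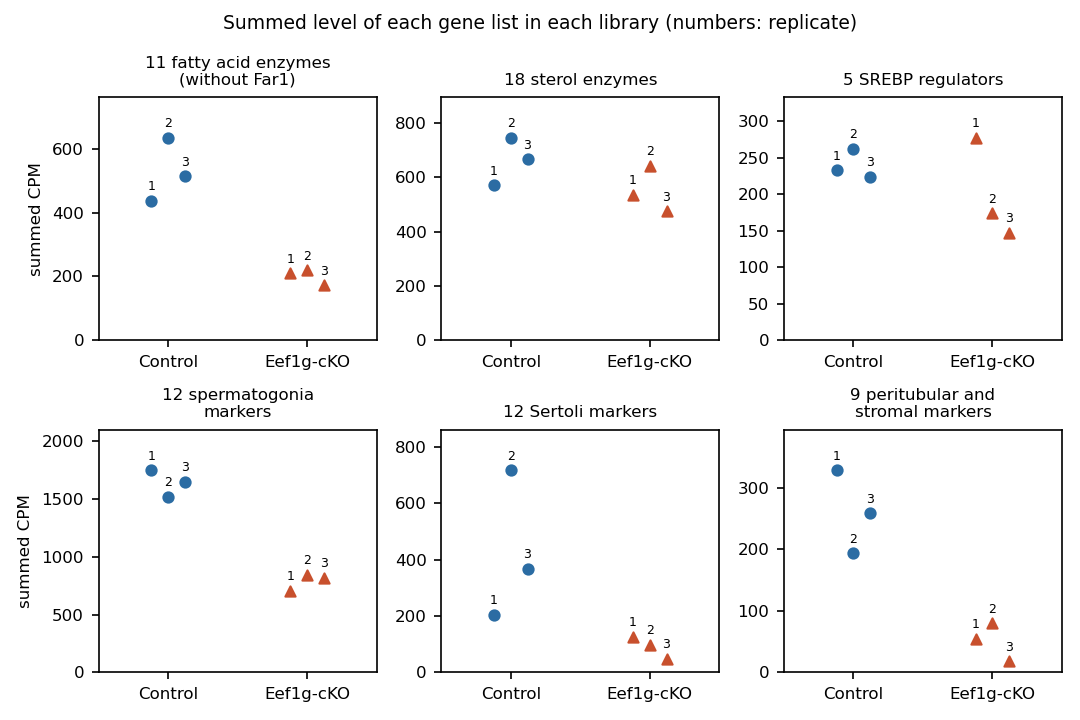
Summed CPM of 3 groups of lipid genes (top) and 3 lists of markers of other cells (bottom) in each library, with Control circles, Eef1g-cKO triangles and replicate numbers beside the points; each vertical axis starts at 0. The sums of the 11 fatty acid enzymes other than Far1 and of all 3 marker lists are lower in every Eef1g-cKO library than in any Control library. With Far1 added, which is not drawn, the enzyme sum is higher in every Eef1g-cKO library. The sums of the sterol enzymes and of the SREBP regulators overlap. Taken singly, the regulators Srebf1, Srebf2 and Insig1 separate in the lower direction, Insig2 narrowly separates in the higher, and Scap overlaps.

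No sterol synthesis enzyme passed the threshold. Of 18 enzymes 11 were tested, and edgeR called 0 lower and 0 higher, beside 6.01% lower and 7.80% higher over all tested genes. At an unadjusted p under 0.05, 1 was lower, Mvd, beside 13.2% of all tested genes. With 11 genes, these counts lie near those shares. DESeq2 called 0 in either direction and limma-voom called 1, again Mvd, which edgeR also called without Eef1g-cKO replicate 2. The summed level of the 18 enzymes was 571, 746 and 668 CPM in Control and 536, 644 and 476 CPM in Eef1g-cKO, so the groups overlapped. Whether sterol and fatty acid enzymes differed from each other in their response was not tested.

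In the mevalonate arm, Hmgcs1, which makes HMG-CoA, was the most abundant member, with 135, 184 and 173 CPM in Control and 154, 227 and 75.7 CPM in Eef1g-cKO. Its log2 fold change was −0.07 (SE 0.29), and the 95% interval ran from −0.69 to 0.54. Eef1g-cKO replicate 3, the shallowest library, had the lowest value and Eef1g-cKO replicate 2 the highest of all 6. Idi1, the isomerase of isopentenyl diphosphate, and Ggps1, which makes geranylgeranyl diphosphate, had log2 fold changes of −0.30 and −0.34 with intervals that included 0. Ggps1 shares 257 bases with Arid4b on the opposite strand, and the strand setting of the counting is not stated.

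Mvd, the decarboxylase of the arm, had 15, 19 and 15 reads in Control and 0, 6 and 0 in Eef1g-cKO. The genotypes did not overlap in CPM, but the log2 fold change of −3.04 had a wide interval (−5.26 to −0.81) and missed the threshold (adjusted p 0.0646). Mevalonate kinase (Mvk), which acts earlier, had 4, 6 and 9 reads in Control and none in Eef1g-cKO. Its Control level was 5.62 times a floor of 3 reads over the Eef1g-cKO group. That ratio leaves out the counting error of the Control reads, and Mvk had too few reads to be tested. Pmvk had 5, 2 and 16 reads in Control and 0, 17 and 3 in Eef1g-cKO, and Fdps had 11 reads in Control replicate 3 and 1 read in all other libraries. Neither showed a separation of the groups at this depth.

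Squalene synthase (Fdft1) had 28.2, 79.8 and 80.0 CPM in Control and 42.0, 53.7 and 63.3 CPM in Eef1g-cKO, with Control replicate 1 the lowest of all. Squalene epoxidase (Sqle), a rate-controlling enzyme of the late pathway, had 65.6, 101 and 88.4 CPM in Control and 67.1, 59.2 and 64.9 CPM in Eef1g-cKO, and its log2 fold change of −0.42 had an interval of −1.02 to 0.18. Lanosterol synthase (Lss) had 20, 24 and 6 reads against 26, 40 and 0. These genes overlapped between the genotypes.

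Among the enzymes that turn lanosterol into cholesterol, Cyp51, the lanosterol demethylase, had 74.0, 55.6 and 66.1 CPM in Control and 46.1, 71.4 and 68.0 CPM in Eef1g-cKO. Its log2 fold change was −0.07, with an interval of −0.72 to 0.57. Msmo1, Hsd17b7 and Sc5d, which act after it, had log2 fold changes of −0.48, −0.69 and −0.05, and all overlapped between the groups. Sc5d varied within Control from 15.7 to 81.4 CPM, more than between the genotypes. The 4 others of this stretch had too few reads. Dhcr7, the last reductase of the pathway, had 3, 23 and 22 reads in Control and 7, 5 and 0 in Eef1g-cKO. Nsdhl had 1, 7 and 17 reads against 5, 15 and 0. Ebp had at most 3 reads in 5 libraries and 18 reads in Eef1g-cKO replicate 3. Tm7sf2 had no read in Control and 2, 10 and 1 reads in Eef1g-cKO, but 9356 of its bases are also annotated to Vps51 on the same strand, so its reads are uncertain.

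The SREBP factors themselves had few reads. Srebf1, whose products act mainly on fatty acid genes, had 13, 28 and 19 reads in Control and 4, 4 and 2 in Eef1g-cKO, or 9.92, 14.7 and 10.6 CPM against 3.23, 1.57 and 3.09 CPM. All Eef1g-cKO libraries lay below all Control libraries, but with so few reads the log2 fold change of −2.22 had an interval of −4.02 to −0.43 and an adjusted p of 0.0938. Srebf2, whose product acts mainly on sterol genes, had 34, 43 and 29 reads in Control and 12, 5 and 0 in Eef1g-cKO. Its log2 fold change was −2.38 (interval −4.05 to −0.72), with an adjusted p of 0.0529. This gene passed the threshold in 6 alternatives, with DESeq2 (adjusted p 0.0246) and without Eef1g-cKO replicate 1 (−3.82, adjusted p 0.0126) among them.

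The proteins that control SREBP transport were better covered. Insig1, itself a classical SREBP target, had 77, 140 and 118 reads in Control and 54, 104 and 5 in Eef1g-cKO, or 58.8, 73.5 and 66.1 CPM against 43.7, 40.8 and 7.72 CPM. The groups did not overlap, with Eef1g-cKO replicate 3 far below the other libraries, and the log2 fold change was −1.03 (SE 0.42, adjusted p 0.12). Insig2, which is not controlled by SREBP in the same way, had 136, 196 and 181 reads in Control and 235, 266 and 72 in Eef1g-cKO, or 104, 103 and 101 CPM against 190, 104 and 111 CPM. Eef1g-cKO replicate 1 stood above the other 5 libraries, and the log2 fold change of 0.40 (interval −0.15 to 0.94) was 0.09 without it. Scap, the escort protein, had 45, 93 and 53 reads in Control and 37, 65 and 16 in Eef1g-cKO, or 34.3, 48.8 and 29.7 CPM against 29.9, 25.5 and 24.7 CPM, with a log2 fold change of −0.49 (interval −1.34 to 0.35). By edgeR, 0 regulators were called. At an unadjusted p under 0.05, 3 of the 5 were lower (Srebf1, Srebf2 and Insig1), beside 13.2% of all tested genes. DESeq2 called 1 lower, Srebf2, and limma-voom called 0. With libraries thinned to the smallest total, edgeR called Insig1 lower (−1.46, adjusted p 0.0329).

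**Figure D4:**
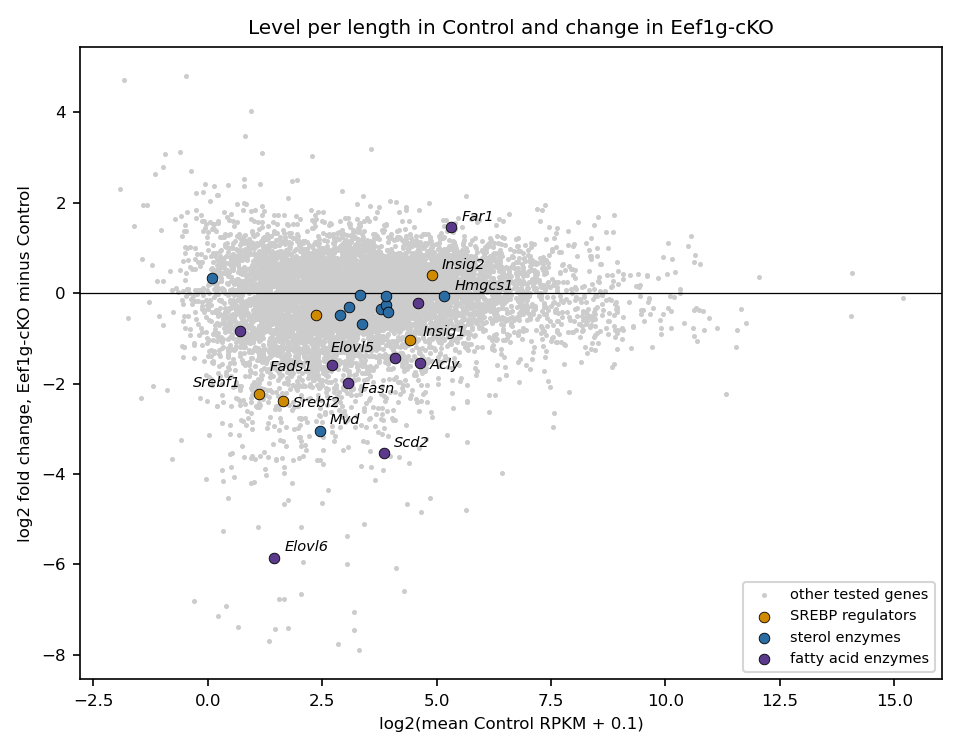
Mean level per length in Control, as log2(RPKM + 0.1), against the log2 fold change for all tested genes (grey) and for the SREBP regulators, sterol enzymes and fatty acid enzymes (coloured). Scd2, Fasn, Acly and Elovl5 lie below 0 in the middle of the range of levels, and Srebf1, Srebf2 and Elovl6, also below 0, have lower Control levels than these.

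Promoter letters were not used to choose the genes. The genes were nevertheless chosen around SREBP, so shares of letters bound by SREBP or its partners are not independent of that choice. RefSeq promoter windows (GRCm38.p6, 250 bases before to 50 after each start) were matched by symbol for 29 of the 35 genes; Fdps, Fdft1, Sqle, Scd1, Scd2 and Fads1 were not matched. NF-Y, a factor that acts beside SREBP at many lipid promoters, binds the letters CCAAT. These were present on either strand in a window of 24 of the 29 genes (82.8%). The share was 44% of 6474 tested genes with a window and 41.1% of all 27025 genes with one. GGGCGG, the core of the Sp1 box, was present in 23 of the 29 (79.3%), against 72.6% of tested genes and 38.2% of all genes with a window. TCACNCCAC, a form of the sterol regulatory element, was found only for Hmgcs1 (3.45% of the 29), against 1.31% of tested genes and 1.44% of all genes with a window. All 3 were searched on both strands, and none contains another. CCAAT occurred both in genes that fell (Fasn, Acly and Elovl5) and in Far1, which rose, and was not found for Elovl6. The following stretches are shown because they carry these letters upstream of genes described above, with the motif in capitals, written 5′ to 3′ on the strand that reads the motif.
Hmgcs1, chr13:119690204-119690232, sterol regulatory element on the gene's strand: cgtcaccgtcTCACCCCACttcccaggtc
Hmgcs1, chr13:119690296-119690320, CCAAT on the opposite strand: ccgctttcagCCAATgagaggcggg
Fasn, chr11:120824623-120824647, CCAAT on the opposite strand: tctcggtggcCCAATggcggcgcgc
Elovl5, chr9:77917338-77917362, CCAAT on the opposite strand: gcgcggccagCCAATccgagcccgg
Far1, chr7:113513799-113513823, CCAAT on the gene's strand: gcgctctcagCCAATgggcgcaccg

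Of 48 further genes of lipid metabolism that were not part of the group, 32 were tested. Of these, 3 (9.38%) were lower and 2 (6.25%) higher, near the 6.01% and 7.80% of all tested genes. Lbr, a sterol reductase of the nuclear envelope, and Acat2, which makes acetoacetyl-CoA, had log2 fold changes of −0.10 and −0.45, and neither was called. The 10 tested genes of sterol uptake, transport and storage included the 3 lower genes and 1 higher gene, and 6 were not called. Stard4, a cytosolic sterol carrier, had 64.9, 73.5 and 73.9 CPM in Control and 25.9, 39.2 and 9.27 CPM in Eef1g-cKO (−1.41, adjusted p 0.023). Npc2, a lysosomal sterol carrier, had 80.1, 35.2 and 60.5 CPM in Control and 23.5, 18.8 and 13.9 CPM in Eef1g-cKO (−1.61, adjusted p 0.0136). Abca1, which exports cholesterol from cells, had 57.2, 82.9 and 45.3 CPM against 30.7, 26.3 and 13.9 CPM (−1.34, adjusted p 0.0277). All 3 were lower in every Eef1g-cKO library than in any Control library.

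Vldlr, a receptor for lipoproteins, was the gene of this wider list with the largest rise, from 2.29, 2.62 and 5.60 CPM to 17.8, 22.0 and 27.8 CPM (log2 fold change 2.63, adjusted p 0.0149). It reached the minimum read level in Eef1g-cKO libraries only. Acss2, which makes acetyl-CoA from acetate, had 57.2, 40.4 and 77.8 CPM in Control and 139, 118 and 85.0 CPM in Eef1g-cKO (0.97, adjusted p 0.0375). Acss2 kept its call in 11 of 21 alternatives, Vldlr in 18 of 20, Npc2 and Abca1 each in 17 of 20, and Stard4 in 16 of 20. Each of the 5 lost its call in at least 1 fit that left out a single library. Fits without 1 Control library also called fewer of all tested genes, 2.52% to 2.74% lower and 4.08% to 4.42% higher. Over the alternatives the log2 fold changes kept their sign. They ran from 2.32 to 3.13 for Vldlr, −1.87 to −1.30 for Npc2 and −1.90 to −1.06 for Stard4. For Abca1 they ran from −1.52 to −1.07 and for Acss2 from 0.77 to 1.24. Stard4 lost its call without Control replicate 1, 2 or 3 or Eef1g-cKO replicate 1, Vldlr without Control replicate 1 or 2, Npc2 without Control replicate 1 or 3, Abca1 without Control replicate 1 or 2 or Eef1g-cKO replicate 3, and Acss2 without Control replicate 1 or 2 or Eef1g-cKO replicate 1 or 2.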

How the data were processed

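The authors filtered reads with fastp, aligned them to GRCm38 with HISAT2 and counted them per Ensembl gene with featureCounts; RNA had been amplified as full-length cDNA without molecular identifiers. The deposited values are raw read counts, neither normalised nor pooled. Clopper-Pearson intervals for ratios of summed reads, and read floors, cover counting error only. Intervals of fold changes come from the edgeR fit and include the spread between libraries. Strand setting and treatment of multi-mapping reads are not stated. Counts were tested with edgeR 4.0.16 (R 4.3.3): filterByExpr (minimum count 10, total 15), TMM scaling, robust quasi-likelihood F test with genotype as the only term, Benjamini-Hochberg adjustment over 8513 genes, which held 98.1% of the reads. CPM used the TMM-scaled sizes, and RPKM also used the gene length in the table. Every 2 libraries differed by more than sampling noise (chi-square per degree of freedom at least 6.37). Scripts were tested on simulated data. Genes named are all 35 members (reads in every library for those called and for the regulators), every called gene of a wider lipid list, and Eef1g; uncalled genes of that list and single markers were named after their values were seen. The members and lists were chosen with earlier results of these data known. Sequences come from RefSeq tables. Alternatives included DESeq2 1.42.0, limma-voom (limma 3.58.1), other scalings, filters, and gene length and GC content offsets, the latter from GENCODE mouse transcripts.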

Additional observations from a re-analysis of the deposited data

How the results depend on the processing

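Far1 was called higher in all 21 alternatives (log2 fold change 1.14 to 1.53) and was the 1 higher gene in each. Fasn and Acly were called lower in all 21 (−2.17 to −1.49 and −1.74 to −1.23), Scd2 in all 20 that tested it (−3.83 to −3.35) and Elovl6 in all 19. Elovl5 lost its call in 6 of 21, the gene length offset and thinned libraries included. Eef1g, the targeted gene, also lost its call in several alternatives. Among them were the GC content offset (−0.42, adjusted p 0.191) and the fit without Control replicate 2 (−0.66, adjusted p 0.121). It kept its call with DESeq2 (−0.68, adjusted p 0.0126). Requiring 10 or more reads per library left 3 genes lower, since Scd2 and Elovl6 were then not tested. Leaving out 1 library gave 4 to 6 genes lower, 1 higher and a median log2 fold change of −0.69 to −0.28, the last without Control replicate 2. The other alternatives gave 4 to 6 lower and medians from −0.68 to −0.45; scaling by library totals or upper quartile moved the median of all tested genes from −0.05 to −0.24 and −0.17. Scap changed sign with the GC content offset (0.02), also where it was combined with the replicate block (0.03), far from the threshold in both; the cause was not tested. Whether same-numbered libraries were paired is not given in the sources used here. Their deviations had correlations of −0.04, 0.02 and −0.05, which cannot exclude a shared litter or sort. A replicate block gave 6 lower genes (Srebf2 added), 1 higher gene and a median of −0.49. Leaving out rRNA and mitochondrial genes, chosen after seeing the data, gave 5 lower and 1 higher. Depth limits the 10 untested genes and the SREBP factors, since 3 reads correspond to 1.18 to 4.63 CPM.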
